A study of Mus musculus with 6 samples.

Results

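The Zhx gene family comprised 4 genes, Zhx1, Zhx2, Zhx3 and Homez, picked out by gene symbol from the 25701 genes of the expression table. The family was chosen with earlier results of these data known. All 4 were present, and all 4 were among the 15372 genes that passed the filter on low values (mean over the 6 libraries not under 10). Zhx1, Zhx2 and Zhx3 encode nuclear proteins that carry C2H2 zinc fingers and several homeodomains, the DNA-binding folds of many developmental regulators. They form homodimers and heterodimers with each other, they bind the A subunit of the NF-Y complex, and they are best known as transcriptional repressors in liver, kidney podocytes and tumours. Homez carries homeodomains and a leucine zipper-like stretch without the zinc fingers, and it is the nearest relative of the other 3 in vertebrate genomes.

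The data were polyA RNA-seq of cardiac progenitor (CP) cells derived from 46C, a mouse embryonic stem cell (ESC) line with a fluorescent reporter at Sox1. There were 3 libraries labelled Zhx1-KO (genotype KO_ZHX1), from 46C ESCs in which a pair of guide RNAs with Cas9 was used to delete Zhx1, and 3 of 46C-Ctrl, from 46C cells with a control genotype. Both groups had gone through the same cardiomyocyte differentiation with BMP4, Activin A, VEGF and FGF, and the labels name the CP stage and no day. The methods describe a single Zhx1-KO line, without a number of clones, and present the data of the study as independent experiments. No label ties a library to its own culture or experiment, so the p-values reflect the spread between libraries alone, which may be technical.

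The guide RNAs of the deletion are shown because their cuts set which part of the Zhx1 transcript could be missing. Each is printed 5′ to 3′ with the PAM, the bases next to the guide that Cas9 needs, in capitals.
Zhx1 5′ guide: tctcattagtagcgtttccaTGG
Zhx1 3′ guide: gaagcggaagctttctaaatCGG
In GRCm38 the 5′ guide lies at chr15:58054982-58055001 on the plus strand, opposite to the gene, and its cut falls in the 5′ UTR, 150 bases before the start codon. The 3′ guide lies at chr15:58052238-58052257 on the minus strand, and its cut falls in the coding sequence with 11 coding bases left after it. Both cuts are in 1 exon, which is exon 3 of 4 in transcript Zhx1-201. The 2758 bases between the cuts hold 2608 of 2619 coding bases (99.6%).

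A deletion between the cuts would leave a large part of the transcript. Of the bases of Zhx1-201, Zhx1-202 and Zhx1-203, 42.1%, 47.1% and 43.0% lie outside the cuts, and of the 6031 exon bases of all Zhx1 transcripts merged, 54.3% do. A read from these untranslated parts counts for Zhx1 in the gene-level table. A readthrough gene model on the same strand, Gm29394, shares 662 of these bases, and without them 48.6% of the remaining 5369 bases lie outside. The whole-gene value of Zhx1 is therefore no check of the labels, and the libraries are called by their labels throughout. The study itself checked its Zhx1-KO ESCs by PCR for the gene deletion, by mRNA level and by protein level. Those checks were of ESCs, not of these libraries.

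**Figure D1:**
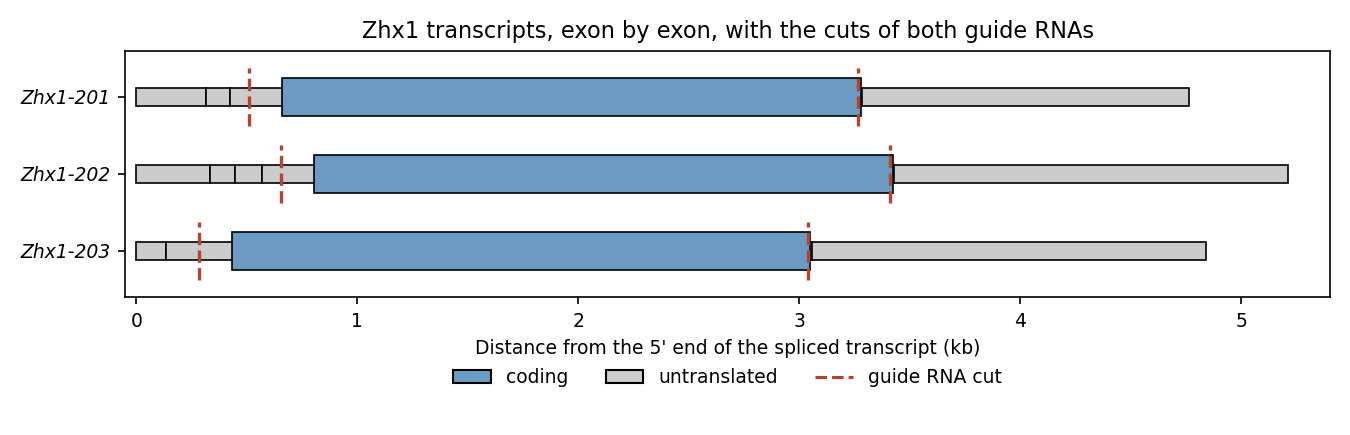
Exons of 3 Zhx1 transcripts laid end to end, with distance from the 5′ end of the spliced transcript in kb. Wide boxes are coding, narrow boxes untranslated, and dashed lines are the cuts of both guide RNAs. In each transcript the cuts enclose 2758 bases with nearly the whole coding sequence, and the untranslated stretches on either side lie outside.

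Depth, taken as the sum of the values in units of the smallest step of a library, ran between 13769967 and 15940874. Within the groups, pairs of libraries labelled Zhx1-KO differed by a chi-square per gene of 6.55 to 8.11. In 46C-Ctrl, replicates 1 and 3 differed by 5.88, and replicate 2 stood apart from both, at 17.3 and 18.7. Its mitochondrial share was 2.77%, and that of the other 5 libraries lay between 1.72% and 1.87%. The groups differed widely across the genome, since limma on log2(value + 1) with Benjamini-Hochberg adjustment called 7998 of 15372 genes (52%) at an adjusted p under 0.05, 3940 higher and 4058 lower in the libraries labelled Zhx1-KO. Cell type markers moved too. Of 6 CP markers 5 were lower and 0 higher, with a summed level of 1081 to 1159 in the libraries labelled Zhx1-KO and 7770 to 8527 in 46C-Ctrl. Hand1 made up most of the sum in 46C-Ctrl (5405 to 6036, against 177 to 230 in the libraries labelled Zhx1-KO). Hand2 fell to 0.174-fold, Nkx2-5 to 0.567-fold and Mef2c to 0.488-fold, and Isl1 was not called. Tbx5 was near the floor in the libraries labelled Zhx1-KO, at 3.02, 1.01 and 1.76, against 66.3, 56.9 and 63.3 in 46C-Ctrl. Of 7 endothelial markers 6 were higher (4707 to 4964 in the libraries labelled Zhx1-KO, 965 to 1065 in 46C-Ctrl), of 7 neural markers 6 were higher and 1 lower (3803 to 3896 in the libraries labelled Zhx1-KO, 3057 to 3489 in 46C-Ctrl), and of 7 endoderm markers 6 were lower (7702 to 8752 in the libraries labelled Zhx1-KO, 25845 to 28828 in 46C-Ctrl). Of 7 pluripotency markers 6 were tested, and 4 were lower and 1 higher (3262 to 3395 in the libraries labelled Zhx1-KO, 5654 to 5732 in 46C-Ctrl). Most of the neural sum in 46C-Ctrl was Nes (2485 to 2991), the 1 neural marker that was lower, so that sum hides larger rises. Most of the endoderm sum in 46C-Ctrl was Krt8 (22720 to 25492). None of the 6 CP markers was listed at exactly 0 in any library, though Tbx5 came near it. Pax6, of the neural list, was listed at 0 in all 3 46C-Ctrl libraries. The part of these cell type differences in the results for the Zhx family was not tested.

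Zhx3 was lower in the libraries labelled Zhx1-KO, and no other member of the family passed the test with all libraries in. The family thus had 0 members higher, 1 lower (25% of 4) and 3 not called, where 26.4% of all tested genes were called lower and 52% were called in either direction. The share called lower was near its background, and the share called in either direction, also 25%, was below its own. With 4 genes, neither comparison can decide whether the family differs from the background. The median log2 fold change of the 4 members was -0.22, against 0.0088 over all genes tested. Whether the members differ from each other in their response was not tested.

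Zhx3, the largest of the 3 zinc finger proteins and a partner of Zhx1 in dimers, had normalized counts of 233, 203 and 213 in libraries 1, 2 and 3 labelled Zhx1-KO, against 399, 346 and 364 in 46C-Ctrl 1, 2 and 3. The groups did not overlap, as was the case for 60.8% of the genes tested, and the lowest 46C-Ctrl library lay well above the highest library labelled Zhx1-KO. The means were 216 ± 15.1 in the libraries labelled Zhx1-KO and 369 ± 27.0 in 46C-Ctrl (SD, n = 3 each). The log2 fold change was -0.77 with a standard error of 0.10 and a 95% interval of -1.0 to -0.54, which is 0.587-fold (0.499 to 0.690), and the adjusted p from limma was 0.000495. An exact two-sided permutation test over the 6 libraries gave p = 0.1, the smallest that 3 against 3 allow.

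The call of Zhx3 did not depend on any 1 library: over 14 other settings, 6 of which left out 1 library each, its log2 fold change ran between -0.82 and -0.71 and its adjusted p from limma between 0.000374 and 0.00274. A change of this size was not rare in these data, as 12.6% of the genes tested had a more negative log2 fold change. In bulk libraries such as these, fewer cells that express Zhx3 and less Zhx3 RNA per cell cannot be told apart. The Zhx3 gene spans 160748708 to 160872998 on the minus strand of chromosome 2. Of its 13259 merged exon bases 379 (2.86%) are shared with Plcg1, a phospholipase gene on the opposite strand. The methods give strand-aware settings for the mapping with HISAT2 and for StringTie, but the program behind the deposited counts, with its strand setting, is not named in the sources used here. Plcg1 had 3069, 3150 and 3076 normalized counts in the libraries labelled Zhx1-KO, against 3112, 2746 and 2997 in 46C-Ctrl, and it was not called (log2 fold change 0.07, adjusted p = 0.322 from limma).

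Zhx1, the targeted gene and the founding member of the family, was not called. It had 225, 325 and 308 normalized counts in libraries 1, 2 and 3 labelled Zhx1-KO, against 460, 181 and 457 in 46C-Ctrl 1, 2 and 3. The lowest of the 6 values was thus in a 46C-Ctrl library, and the other 46C-Ctrl libraries lay above every library labelled Zhx1-KO. The log2 fold change was -0.25 with a standard error of 0.35 and a 95% interval of -1.07 to 0.56 (adjusted p = 0.579 from limma, and p = 0.6 in the exact two-sided permutation test). As a fold this interval is 0.476-fold to 1.48-fold, so it holds both a fall and a rise.

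If a step stands for 1 read, the low Zhx1 value of 46C-Ctrl 2 was more than counting error. In steps the value was 175 (95% Poisson interval 150 to 203, counting error only), against 472 (430 to 517) in 46C-Ctrl 1 and 433 (393 to 476) in 46C-Ctrl 3. Zhx1 in 46C-Ctrl 2 was 0.396-fold of the other 46C-Ctrl libraries, and 1.91% of the genes tested were at or below that difference. The other members moved less in the same library, at 0.843-fold for Zhx2, 0.908-fold for Zhx3 and 0.925-fold for Homez. In the library labelled Zhx1-KO 1, Zhx1 was 0.712-fold of the other libraries with that label, with 6.12% of the genes tested at or below it.

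Without 46C-Ctrl 2, Zhx1 was called lower, with a log2 fold change of -0.70, a standard error of 0.16, a 95% interval of -1.09 to -0.31 and an adjusted p of 0.0113 from limma. Leaving out 46C-Ctrl 1 or 46C-Ctrl 3 in its place gave -0.03 each time. With the library labelled Zhx1-KO 1 left out it was -0.09. Even the value without 46C-Ctrl 2 leaves clear Zhx1 signal in the libraries labelled Zhx1-KO, in each of which it was at least 225 normalized counts. From which exons that signal came was not analysed here, since the table holds 1 value per gene.

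Zhx2, a repressor of liver genes such as Afp and a substrate of the von Hippel-Lindau protein, was not called. Its values were 199, 205 and 195 normalized counts in the libraries labelled Zhx1-KO, against 249, 202 and 231 in 46C-Ctrl. The groups overlapped through 46C-Ctrl 2 alone, which lay below the library labelled Zhx1-KO 2. The log2 fold change was -0.18 with a standard error of 0.11 and a 95% interval of -0.44 to 0.08 (adjusted p = 0.219 from limma, and p = 0.2 in the exact two-sided permutation test). It was negative and not called in all 14 other settings, where the adjusted p from limma ran between 0.0887 and 0.491. These data leave room for a fall to 0.736-fold and for a rise to 1.06-fold.

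Homez, the member without zinc fingers, was the most even of the 4. It had 319, 314 and 266 normalized counts in the libraries labelled Zhx1-KO, against 328, 286 and 291 in 46C-Ctrl, so the groups overlapped over most of their range. The log2 fold change was -0.01 with a standard error of 0.11 and a 95% interval of -0.26 to 0.24 (adjusted p = 0.95 from limma, and p = 1 in the exact two-sided permutation test). Its sign changed with the libraries used, at 0.05 without 46C-Ctrl 1 and 0.07 without the library labelled Zhx1-KO 3. Only 1.52% of the genes tested had a smaller change in size.

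**Figure D2:**
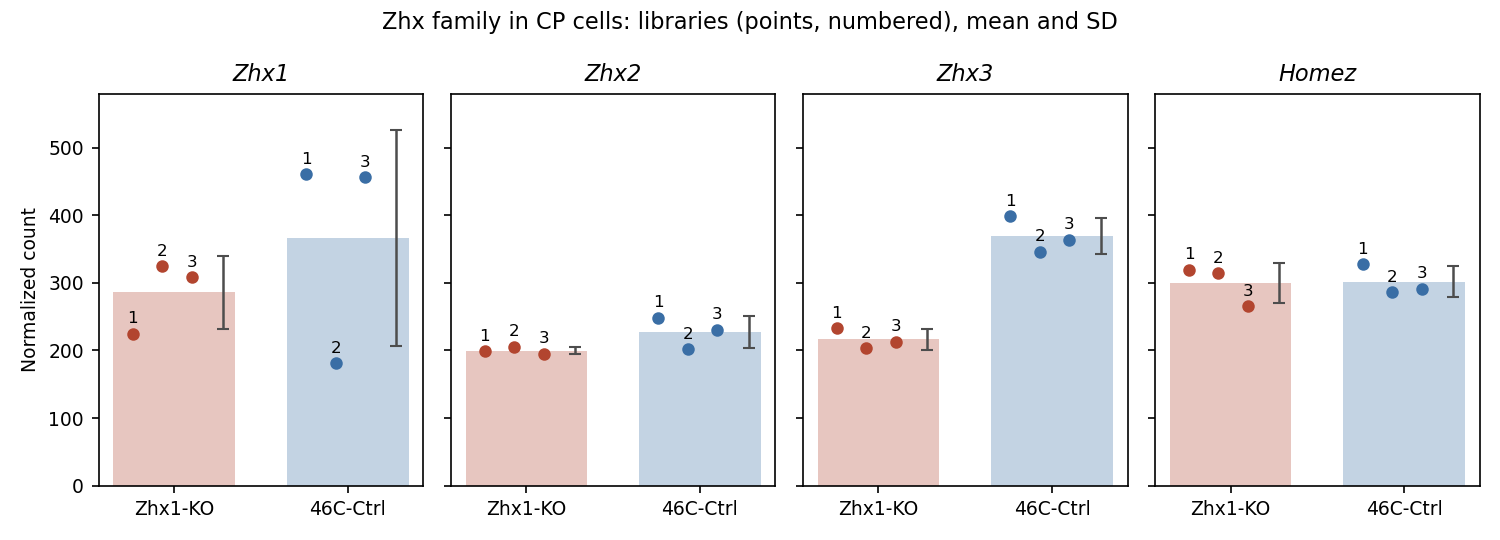
Normalized count of each family member, with the libraries labelled Zhx1-KO left of 46C-Ctrl in each panel. Points are libraries, numbered by replicate, bars are means and error bars are SD (n = 3 each). Zhx3 is the member whose groups do not overlap, and the lowest Zhx1 point, 181, is 46C-Ctrl 2.

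**Figure D3:**
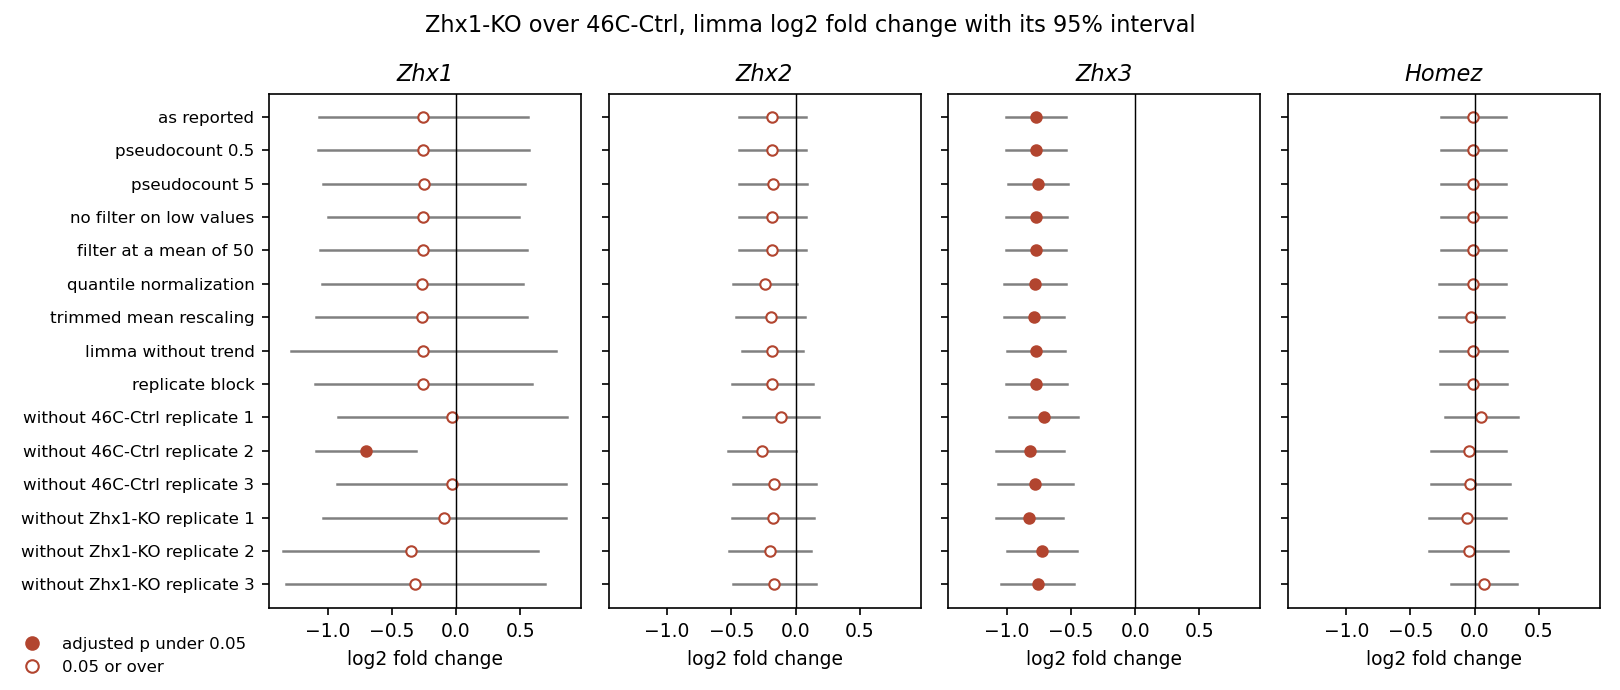
Log2 fold change of each member (x axis, libraries labelled Zhx1-KO over 46C-Ctrl) with its 95% interval, as reported and under 14 other settings (rows). Filled points have an adjusted p under 0.05 in limma. Zhx3 is filled in every row, Zhx1 only without 46C-Ctrl replicate 2, and Zhx2 and Homez in none.

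The 4 members summed to 976, 1048 and 982 normalized counts in the libraries labelled Zhx1-KO, against 1436, 1015 and 1342 in 46C-Ctrl. The mean sum was 1002 ± 39.8 in the libraries labelled Zhx1-KO and 1264 ± 221 in 46C-Ctrl (SD, n = 3 each), and the groups overlapped through 46C-Ctrl 2. Zhx3 made up 19.4% to 23.9% of the sum in the libraries labelled Zhx1-KO and 27.1% to 34.1% in 46C-Ctrl. The share of Homez was 27.1% to 32.7% in the libraries labelled Zhx1-KO and 21.7% to 28.2% in 46C-Ctrl. These shares are not corrected for gene length, so they compare libraries and not genes.

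By level, all 4 were genes of middling expression. Between 42.4% (Zhx2) and 51.3% (Zhx1) of the genes tested had a lower mean value over the 6 libraries. Levels of different genes were compared only per kb of merged exons, which measured 6.03 kb for Zhx1, 4.43 kb for Zhx2, 13.3 kb for Zhx3 and 5.91 kb for Homez. In the libraries labelled Zhx1-KO, the level per kb was 50.8 ± 5.02 for Homez, 47.4 ± 8.87 for Zhx1, 45.0 ± 1.14 for Zhx2 and 16.3 ± 1.14 for Zhx3. In 46C-Ctrl it was 60.7 ± 26.5 for Zhx1, 51.2 ± 5.33 for Zhx2, 51.0 ± 3.87 for Homez and 27.9 ± 2.04 for Zhx3 (SD, n = 3 each). The length of Zhx1 includes the 2758 bases between the cuts of the guide RNAs. A transcript without them would keep 3273 of the merged exon bases. In that case the level of Zhx1 per kb in the libraries labelled Zhx1-KO is understated.

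Zhx3 was the lowest member per kb in all 6 libraries. At these full lengths the order of Zhx1, Zhx2 and Homez changed between libraries, and their levels did not differ beyond their spread. Zhx1 was first in 4 libraries, and behind Homez and Zhx2 in the library labelled Zhx1-KO 1 and in 46C-Ctrl 2. With the bases between the cuts left out, Zhx1 would stand higher in the libraries labelled Zhx1-KO, so its place there is uncertain. The place of Zhx3 depended in part on the length used, because its merged exons are much longer than its longest coding transcript, 9.56 kb. Per kb of that transcript Zhx3 was lowest in 5 libraries, and in 46C-Ctrl 2 Zhx1 was below it (34.8 for Zhx1 and 36.2 for Zhx3).

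**Figure D4:**
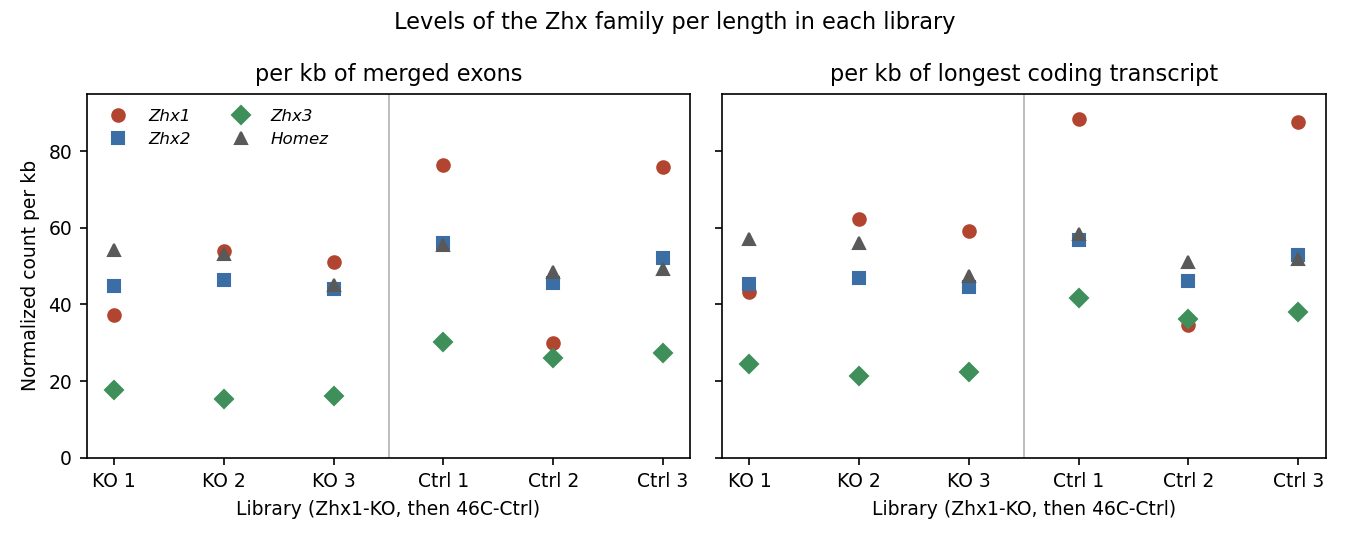
Normalized count per kb of merged exons (left) and of the longest coding transcript (right) for the 4 members in each library, the libraries labelled Zhx1-KO first. Zhx3 lies lowest in every library on the left, and in 46C-Ctrl 2 on the right Zhx1 lies just below it. Both lengths of Zhx1 include the bases between the cuts, also for the libraries labelled Zhx1-KO.

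The members are related in sequence to unequal degrees. Translated from the annotated coding sequences, the proteins are 873 residues long for Zhx1, 836 for Zhx2, 951 for Zhx3 and 518 for Homez. Zhx1 and Zhx2 were the closest pair, identical at 43.3% of aligned residues, followed by Zhx1 and Zhx3 at 40.3% and Zhx2 and Zhx3 at 37.3%. Homez was identical to Zhx3 at 33.6%, to Zhx1 at 32.0% and to Zhx2 at 27.1%. The C2H2 zinc finger pattern was found at 2 places in each of Zhx1, Zhx2 and Zhx3, near the start of the protein, and at 0 in Homez. In Zhx1 the fingers span residues 72 to 93 and 104 to 125. Both are encoded between the cuts of the guide RNAs.

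Zhx1 and Zhx2 are neighbours on chromosome 15 of GRCm38, 207 kb apart, with Zhx2 at 57694665 to 57839832 on the plus strand and Zhx1 at 58047003 to 58076541 on the minus strand. Homez lies at 54852736 to 54870961 on the minus strand of chromosome 14. Within 500 kb of any member 46 genes were tested that were not members themselves, of which 8 were higher, 12 lower and 26 not called (43.5% called, against 52% of all genes tested), with a median log2 fold change of -0.11. Around Zhx1, the targeted gene, 9 genes were tested, Zhx2 among them, of which 1 was higher, 3 were lower and 5 were not called.

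Of the named genes, the nearest to Zhx1 at higher coordinates was Atad2, a chromatin ATPase gene 17.5 kb away. Atad2 had 78.6, 665 and 984 normalized counts in the libraries labelled Zhx1-KO, against 1346, 750 and 2091 in 46C-Ctrl, and it was not called (log2 fold change -1.78, standard error 0.87, adjusted p = 0.126 from limma). Within each group Atad2 was lowest in the same library as Zhx1, the library labelled Zhx1-KO 1 and 46C-Ctrl 2. On the other side Tbc1d31, 76.9 kb away, was higher, with 350, 341 and 411 in the libraries labelled Zhx1-KO, against 254, 290 and 269 in 46C-Ctrl (log2 fold change 0.44, adjusted p = 0.0103 from limma).

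Next to Zhx2, Derl1, an endoplasmic reticulum gene 29.7 kb away, was lower, with 1272, 1424 and 1364 normalized counts in the libraries labelled Zhx1-KO, against 1725, 1657 and 1724 in 46C-Ctrl (log2 fold change -0.33, adjusted p = 0.00221 from limma). No gene was tested within 500 kb on its other side. Next to Zhx3, Top1, the DNA topoisomerase gene 25.9 kb away, was lower (log2 fold change -0.25, standard error 0.05, adjusted p = 0.00236 from limma), and Lpin3, 7.67 kb away on the other side, was not called (0.15, adjusted p = 0.291 from limma). Top1 thus moved the same way as Zhx3 by a smaller amount. Next to Homez, Ppp1r3e, 1.71 kb away, was not called (-1.39, adjusted p = 0.107 from limma), and Slc7a8, an amino acid transporter gene 70.8 kb away, was lower (-1.67, adjusted p = 0.000541 from limma).

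The genes whose pattern over the 6 libraries was most like that of a member were sought among genes with a mean of at least 100, by the root mean square (RMS) difference of log2(value + 1) after centring each gene on its mean. For Zhx3 these were Mterf3, Tada2b and Cited2, with RMS differences of 0.03, 0.04 and 0.05. Cited2, a co-regulator gene needed for heart development, had 1891, 1797 and 1727 normalized counts in the libraries labelled Zhx1-KO, against 3287, 2927 and 3150 in 46C-Ctrl, the same group pattern as Zhx3 at a higher level.

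For Zhx1 the most alike were Dnm2, Msh3 and Slc38a7, with RMS differences of 0.19, 0.20 and 0.21, much looser than for Zhx3. All 3 were low in 46C-Ctrl 2, as Zhx1 was, which follows from how they were chosen. Msh3, a DNA mismatch repair gene, had 293, 318 and 341 normalized counts in the libraries labelled Zhx1-KO, against 456, 263 and 508 in 46C-Ctrl. For Zhx2 the most alike were Cnot3, Abcd3 and Ccdc85c (RMS differences of 0.02, 0.03 and 0.03), and for Homez Zscan22, Carm1 and Plbd2 (0.03, 0.03 and 0.04).

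Among 12 genes for proteins known to act with or on Zhx proteins, 3 were higher, 7 lower and 2 not called (83.3% called, against 52% of all genes tested), with a median log2 fold change of -0.38. The list was chosen with earlier results of these data known, and its count is a description. Vhl, whose product marks ZHX2 for degradation in human cells, had 596, 625 and 601 normalized counts in the libraries labelled Zhx1-KO, against 934, 932 and 983 in 46C-Ctrl (log2 fold change -0.64, standard error 0.06, adjusted p from limma = 8.49e-05). The groups did not overlap. The EGLN prolyl hydroxylases, oxygen sensors that act ahead of Vhl, went both ways: Egln1 was higher (0.62, adjusted p = 0.0001 from limma) and Egln2 lower (-0.62, adjusted p = 0.000187 from limma), and Egln3 was higher (0.35, adjusted p = 0.0135 from limma).

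Of the 3 NF-Y subunits, Nfyc was lower, with 606, 666 and 657 normalized counts in the libraries labelled Zhx1-KO, against 1008, 974 and 1050 in 46C-Ctrl (log2 fold change -0.65, adjusted p = 0.000135 from limma). Nfyb was not called (0.12, adjusted p = 0.127 from limma). Nfya, the subunit that Zhx proteins bind, had 166, 557 and 479 in the libraries labelled Zhx1-KO, against 256, 444 and 405 in 46C-Ctrl, and was not called (-0.02, adjusted p = 0.980 from limma). Replicate 1 was the lowest in each group, so the spread within groups was far larger than the difference between them. NF-Y binds the CCAAT box, and of the 300-base RefSeq promoters of GRCm38.p6 at hand for Homez and Zhx3, that of Homez holds the letters CCAAT at 3 places (either strand) and that of Zhx3 at 0. Of 32851 promoters 37.4% hold at least 1 and 3.37% at least 3. The Homez promoter used lies at 54864109 to 54864408 on chromosome 14. That is inside the gene model, which reaches to 54870961 on the minus strand, so it is not the promoter of the outermost annotated start.

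The other partner genes were Rela, Dnmt3b, Zmynd11 and Efnb1, which were lower, and Hnrnpa1, which was higher. Efnb1 was called by a small margin, with an adjusted p from limma of 0.0450, and was not called in 8 of the 14 other settings. Hnrnpa1, an RNA-binding protein gene and the partner at the centre of the study, had 23234, 24133 and 25412 normalized counts in the libraries labelled Zhx1-KO, against 19749, 20285 and 20483 in 46C-Ctrl (log2 fold change 0.27, adjusted p = 0.00256 from limma). The groups did not overlap. Hnrnpa1 has many near-identical processed copies in the genome, so its count is uncertain.

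The next list holds genes for proteins that came down with Zhx1 in extracts of cells, by mass spectrometry. Of 16 listed genes 13 were tested, and 4 were higher, 3 lower and 6 not called (53.8% called, near the 52% of all genes tested), with a median log2 fold change of 0.01. Beside Hnrnpa1 the smallest adjusted p from limma were those of Ybx3, a cold shock protein gene (-0.61, adjusted p = 2.98e-05), Lsp1, a leukocyte actin-binding protein gene (-1.89, adjusted p = 0.000909), and Rpl3, a ribosomal protein gene with near-identical copies (0.79, adjusted p = 0.0135). This count fell to 4 without 46C-Ctrl 3 and in limma without a trend.

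Of 7 genes known as targets of Zhx2, mostly in mouse liver and human tumours, 6 were tested, and 1 was higher, 2 lower and 3 not called (50% called, near the 52% of all genes tested), with a median log2 fold change of -0.01. H19, an imprinted RNA that Zhx2 represses in adult liver, had 14699, 15076 and 15632 normalized counts in the libraries labelled Zhx1-KO, against 144, 164 and 171 in 46C-Ctrl (log2 fold change 6.56, adjusted p = 9.58e-09 from limma). Afp, the alpha-fetoprotein gene that Zhx2 represses in the same tissue, moved the opposite way, with 2.02, 2.02 and 0.880 in the libraries labelled Zhx1-KO, against 59.5, 69.4 and 75.9 in 46C-Ctrl (-4.74, adjusted p = 4.5e-05 from limma). Afp is also on the list of endoderm markers, of which 6 of 7 were lower. Gpc3, a glypican gene repressed by Zhx2 in liver, was not called (0.08, adjusted p = 0.313 from limma). Of the cyclin genes that Zhx2 represses, Ccna2 was lower (-0.28, adjusted p = 0.00279 from limma) and Ccne1 was not called (-0.10, adjusted p = 0.148 from limma).

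Of 9 genes that earlier work linked to Zhx1 or Zhx3, 8 were tested, and 3 were higher, 2 lower and 3 not called (62.5% called, against 52% of all genes tested), with a median log2 fold change of 0.31. Lmx1b, a homeobox gene of limb and kidney, had 376, 382 and 340 normalized counts in the libraries labelled Zhx1-KO, against 22.4, 41.4 and 39.0 in 46C-Ctrl (log2 fold change 3.42, adjusted p = 2.1e-05 from limma). Pax2, a paired box gene of the kidney, was higher too (4.38, standard error 0.89, adjusted p = 0.0044 from limma). It had 108, 77.9 and 94.2 in the libraries labelled Zhx1-KO, against 4.88, 14.5 and 0 in 46C-Ctrl. Wt1, the listed gene left untested for its low mean, lay the other way. It had 6.05, 0 and 2.64 in the libraries labelled Zhx1-KO, against 17.6, 12.4 and 16.9 in 46C-Ctrl. The paper cites earlier work in which lasting loss of Zhx3 lowered Wt1, Lmx1b and Pax2. Both genes of epithelial-mesenchymal transition on the list, which Zhx1 is reported to activate in glioblastoma cells, passed the test in opposite directions: Twist1 was higher (0.60, adjusted p = 0.00029 from limma) and Snai2 lower (-0.59, adjusted p = 0.00116 from limma). Egr1, an immediate early gene, was lower (-1.68, adjusted p = 3.64e-05 from limma). Bcl2 and Bax, which control apoptosis, were not called (0.06 and -0.09).

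Among 10 other vertebrate genes whose proteins combine zinc fingers and homeodomains, 3 were higher, 3 lower and 4 not called (60% called, against 52% of all genes tested), with a median log2 fold change of -0.04. Zeb1, a repressor of epithelial genes, had 862, 833 and 868 normalized counts in the libraries labelled Zhx1-KO, against 407, 415 and 373 in 46C-Ctrl (log2 fold change 1.10, adjusted p = 1.4e-05 from limma). Zfhx3 was lower, with 324, 262 and 266 in the libraries labelled Zhx1-KO, against 826, 702 and 697 in 46C-Ctrl (-1.39, adjusted p = 4.46e-05 from limma), and so were Tshz1 (-2.06, adjusted p = 0.00026 from limma) and Zfhx2 (-0.65, adjusted p = 0.000543 from limma). Called members of this list thus stood in both directions. The Zhx family had only 1 called member with all libraries in, Zhx3, so its calls could lie in 1 direction only. The difference between the families was not tested. Zfhx2 lies 189 kb from Homez on chromosome 14, and of the 2 genes Homez was not called.

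**Figure D5:**
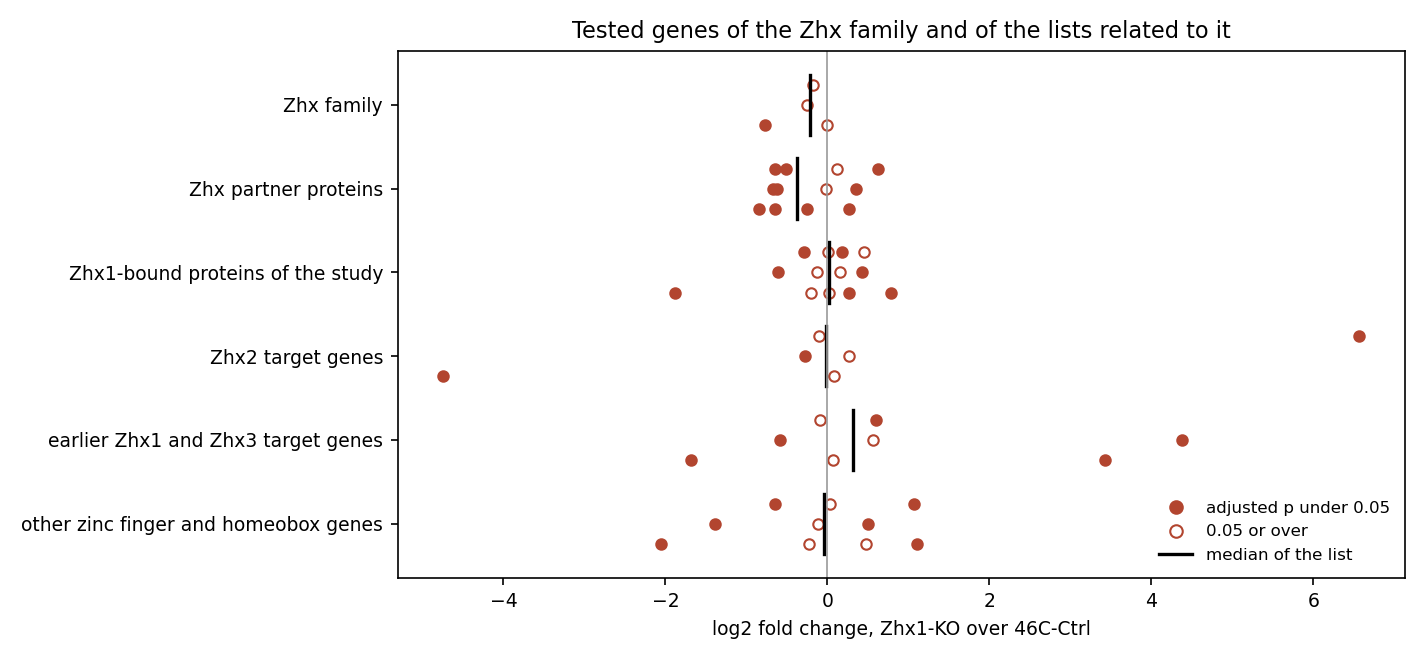
Log2 fold change of each tested gene (points, libraries labelled Zhx1-KO over 46C-Ctrl) for the Zhx family and for 5 lists of related genes, with filled points at an adjusted p under 0.05 in limma and a bar at the median of each list. The family lies between -0.77 and -0.01, and the points farthest from 0 are H19 at 6.56 and Afp at -4.74.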

How the data were processed

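PolyA RNA-seq of CP cells was used, with 3 libraries labelled Zhx1-KO and 3 of 46C-Ctrl. According to the methods and the submitters' processing notes, the authors used cutadapt 1.18 for trimming, HISAT2 2.1.0 for mapping to GRCm38 with GENCODE release M19, and StringTie 1.3.4d, Cufflinks and DESeq2. The deposited values are a signal per gene, counts scaled by the authors with a single factor for each library: 100% of them are whole multiples of a step of the library (within 0.01). The sources used here do not name the counting program. The columns are single libraries, not means. In the libraries labelled Zhx1-KO 1 and 2 the step (1.01 each) was too near 1 to establish whole reads, so no count test was run.

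The table held 25701 genes. With a minimum mean of 10, 15372 were tested in limma 3.58.1 (R 4.3.3) as log2(value + 1), using a mean trend and Benjamini-Hochberg adjustment, and calls are at an adjusted p under 0.05. The 1 added in log2(value + 1) shrinks differences between low values. A low gene can still get a larger fold than its ratio of means, as Pax2 did (20.8-fold against 14.4). Exact two-sided permutation tests over the 6 libraries stand beside the members. On simulated data, 54 of 100 genes changed 2-fold and 33 of 100 changed 1.5-fold were called. Of 15172 unchanged genes 3 were called, over 15372 genes tested. Far fewer genes were changed there than the 7998 called in the real data, which makes the adjustment stricter. These rates therefore do not give the share of real changes that is called, which was not tested. Gene models, lengths, guide positions and translated proteins came from GENCODE release M21 of GRCm38, and promoters from RefSeq (GRCm38.p6), where 2 of the 4 members matched. The members and lists were chosen with earlier results of these data known. Named genes were the members, up to 4 of each related list by smallest adjusted p and other listed members, the nearest tested named gene on each side of a member within 500 kb, and for each member the 3 genes most alike in pattern. Alternatives were pseudocounts of 0.5 and 5, no filter, a filter at a mean of 50, quantile normalization, trimmed mean rescaling, limma without a trend, the replicate number as a block, and each library left out.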

Additional observations from a re-analysis of the deposited data

How the results depend on the processing

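Over 14 alternative settings the direction and the call of Zhx2 and Zhx3 held. Leaving out 1 library at a time, the log2 fold change of Zhx1 ran between -0.698 and -0.0278 and that of Homez between -0.0575 and 0.0747, with Homez positive at 0.0516 without 46C-Ctrl replicate 1 and 0.0747 without Zhx1-KO replicate 3. The number of members called ran between 1 and 2, with 2 only without 46C-Ctrl replicate 2, where Zhx1 was called lower (adjusted p = 0.0113 from limma). In the 8 settings with all libraries the adjusted p of Zhx1 from limma ran between 0.545 and 0.643. Of the Zhx1-bound proteins 7 were called, against 4 to 6 with 1 library left out and 4 in limma without a trend. The cause was not tested. Over all genes tested, 6828 to 8147 were called. With the replicate block 7374 genes were called and Zhx1 stood at an adjusted p of 0.576 from limma, and no call of a member changed. Deviations of same-numbered libraries correlated at 0.0042, -0.069 and 0.00059, and not every library correlated best with its own number. No common shift by number showed, but these correlations cannot decide whether same-numbered libraries shared a culture, which no label gives. With 3 libraries a group and 175 to 472 steps for a member, a fall of the size of the Zhx2 estimate could not be told from none.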

Other observations

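The genes below lie near Zhx1 or belong to the lists above and were chosen after their values were seen. Wdyhv1, which encodes an amidase of amino-terminal glutamine and lies 64.8 kb from Zhx1, was listed at 0, 0 and 1.76 normalized counts in the libraries labelled Zhx1-KO, against 28.3, 40.4 and 69.6 in 46C-Ctrl. It was near the floor in every library labelled Zhx1-KO and in no 46C-Ctrl library (log2 fold change -4.97, standard error 0.62, adjusted p = 0.00039 from limma). Fbxo32, a ubiquitin ligase gene of muscle atrophy 99.3 kb from Zhx1, had 66.5, 87.0 and 80.1 in the libraries labelled Zhx1-KO, against 136, 129 and 135 in 46C-Ctrl (-0.78, adjusted p = 0.0041 from limma).

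Fam91a1, 339 kb from Zhx1, had 2.02, 1158 and 0 normalized counts in the libraries labelled Zhx1-KO, against 0, 0 and 219 in 46C-Ctrl. It was high in 1 library of each group and at or near 0 in the other 4. A listed 0 is not taken as absence here, because a failed estimate would look the same. Myh6 and Myh7, the genes of the cardiac myosin heavy chains, lie 71.0 kb and 99.7 kb from Homez. Both were higher, Myh6 with 1291, 1367 and 1247 in the libraries labelled Zhx1-KO, against 741, 595 and 733 in 46C-Ctrl (0.92, adjusted p = 0.000142 from limma), and Myh7 with 4510, 5113 and 4803 in the libraries labelled Zhx1-KO, against 3835, 3163 and 3733 in 46C-Ctrl (0.43, adjusted p = 0.00347 from limma). Homez itself, between 266 and 328 in all 6 libraries, was not called.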
